A study of Sus scrofa with 2 samples.

Results

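The genes described here are all collagen chain genes among the 21301 genes listed for the 2 libraries. A gene was a member if its symbol was COL, a number, A and a number. The symbol column gave 39 members, and COL4A1, listed there by its Ensembl identifier ENSSSCG00000044700, was added from a gene name table, which made 40. In cells that passed the filters, 33 members had at least 100 unique molecular identifiers (UMIs, 1 count per captured transcript), 7 had fewer and none was at 0. The 7 sparse members (COL4A3, COL4A4, COL6A5, COL10A1, COL22A1, COL25A1 and COL26A1) had 119 UMIs together. The 10 fibrillar members took 79.7% of all collagen UMIs, the 5 beaded-filament members 7.88%, the 6 basement membrane members 6.52%, the 8 fibril-associated members 3.64% and the 2 multiplexins 1.99%. The 3 network-forming members took 0.0807%, the 4 transmembrane members 0.0378% and the 2 others, COL26A1 and COL28A1, 0.111%.

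Collagens are secreted proteins built from 3 chains wound into a triple helix, and each chain has its own gene. Fibrillar collagens (types I, II, III, V, XI and XXVII) form the cable-like fibres that carry load, and fibril-associated collagens (IX, XII, XIV, XVI, XIX, XXI and XXII) sit on the surface of those fibres. Type IV collagen is the network of basement membranes, the thin sheets under endothelium and around muscle fibres, nerves and smooth muscle, while the multiplexins XV and XVIII lie in or next to those sheets, and type VI forms beaded filaments between fibres and cells. In skeletal muscle these proteins make up the epimysium, perimysium and endomysium that wrap the muscle, its fascicles and its fibres, and they are made mainly by fibroblast-lineage cells.

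The study measured single-cell RNA of longissimus dorsi, the long back muscle, from 2 pig breeds that the submitters describe as unlike in intramuscular fat. One was Yorkshire and the other the Guangdong small-eared spotted pig (GDSS). There was 1 library per breed, both titled P0, a term the labels do not define. The labels call the cells intramuscular vascular stem cells. Red blood cells were lysed and dead cells removed with magnetic beads, and neither the number, sex nor age of the piglets was given. Breed therefore cannot be told apart from animal, cell preparation or library, no difference between breeds was tested, and every interval below covers counting error only (95%, exact).

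The GDSS library held 42093851 UMIs in 12286 barcodes and the Yorkshire library 54300953 in 14695. After filters for genes, mitochondrial UMIs and doublets, 10582 and 12666 cells remained, with median depths of 2873.5 and 3003 UMIs, and 37 of the kept barcodes occurred in both libraries. Cells were put into classes by counts of marker genes, none of them a collagen. The labelled cell type was not uniform: in GDSS, 7481 cells were stromal (fibroblast and fibro-adipogenic lineage), 415 satellite (muscle stem), 318 mural, 268 glial (Schwann), 236 macrophage, 189 endothelial and 44 myofibre-like, and in Yorkshire, in the same order, 1908, 4275, 720, 270, 79, 1466 and 267. DCN was found in 99.9% of stromal cells of each library, PECAM1 in 87.8% and 97.2% of endothelial cells and CSF1R in 88.6% and 87.3% of macrophages. Detection of the 10 stromal markers ran from DPT (22.6% and 22.8%) to DCN, with PDGFRA at 38.9% and 43.0%. PAX7 was found in 42.7% of GDSS and 40.3% of Yorkshire satellite cells, and MYF5 in 66.0% and 60.7%. All of these genes are gate markers, so their shares were partly set by the gate. Cells that met no class (917 and 2632) or several (711 and 1041) entered no comparison.

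Stromal cells were the main source of collagen transcripts. They held 85.1% of all collagen UMIs of the GDSS cells and 54.9% of those of the Yorkshire cells. Collagens made up 4.34% (4.34 to 4.35) of stromal UMIs in GDSS and 5.05% (5.04 to 5.07) in Yorkshire, or 151 and 211 collagen UMIs per cell. The median stromal cell was closer between libraries, at 3.36% and 3.34%, with quartiles of 2.40% and 4.58% in GDSS and 2.33% and 5.24% in Yorkshire. Collagen shares in the other classes were far lower: 0.675% and 0.916% in glia, 0.704% and 0.466% in mural cells, 0.397% and 0.607% in satellite cells and 0.167% and 0.148% in endothelial cells, GDSS first.

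Macrophages, which are not known as producers of fibrillar collagen, served as the reference for collagen RNA from other cells. Their collagen share was 0.0302% in GDSS and 0.0280% in Yorkshire, or 2.07 and 2.08 UMIs per cell, although they were the deepest of the 7 classes (medians of 6060.5 and 7356 UMIs). Against the UMIs per macrophage, 23 of the 33 members were higher in stromal cells in both libraries with intervals that exclude 1. The same held for 15 members in mural cells, 15 in glia, 10 in satellite cells, 5 in myofibre-like cells and 3 in endothelial cells (COL4A1, COL4A2 and COL15A1). In macrophages themselves COL1A2 led (71.7 and 56.3 CPM, UMIs of a gene per 1000000 UMIs of its class), then COL3A1 (58.1 and 37.6) and COL1A1 (50.7 and 47.8). In the myofibre-like class 10 cells held 80.7% of the collagen UMIs in GDSS and 75.05% in Yorkshire, so its levels rest on those cells.

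A reference from 13 stromal genes that are neither collagens nor gate markers (such as SFRP2, CCDC80 and ABI3BP) was read in the same classes. In macrophages the median gene of this list stood at 1.18% of its stromal level in GDSS and 1.49% in Yorkshire, in endothelial cells at 2.77% and 2.21%, in glia at 5.78% and 4.89%, in mural cells at 12.3% and 4.71% and in satellite cells at 11.0% and 7.73%. Single genes ranged widely, and IGF1 was at 148% in GDSS macrophages. In endothelial cells the highest gene was IGF1, at 61.0% in GDSS and 83.9% in Yorkshire. In satellite cells it was SVEP1 in GDSS (208%) and IGF1 in Yorkshire (164%). Of the 23 collagens with at least 100 stromal UMIs in each library, those above the highest reference gene in both libraries were COL4A2, COL5A3 and COL18A1 in mural cells, COL5A3, COL12A1, COL16A1, COL18A1 and COL21A1 in glia, COL21A1 in satellite cells and none in endothelial or myofibre-like cells or macrophages. COL17A1 and COL27A1 reached that number of stromal UMIs in GDSS alone and were not compared in both. Because 1 gene sets this bar, a collagen below it can still lie far above the median gene. Endothelial COL4A1 stood at 12.1 and 12.4 times the reference median, GDSS first, and COL4A2 at 13.3 and 21.6 times. The count of none in endothelial cells therefore does not decide the source of their collagen RNA.

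**Figure D1:**
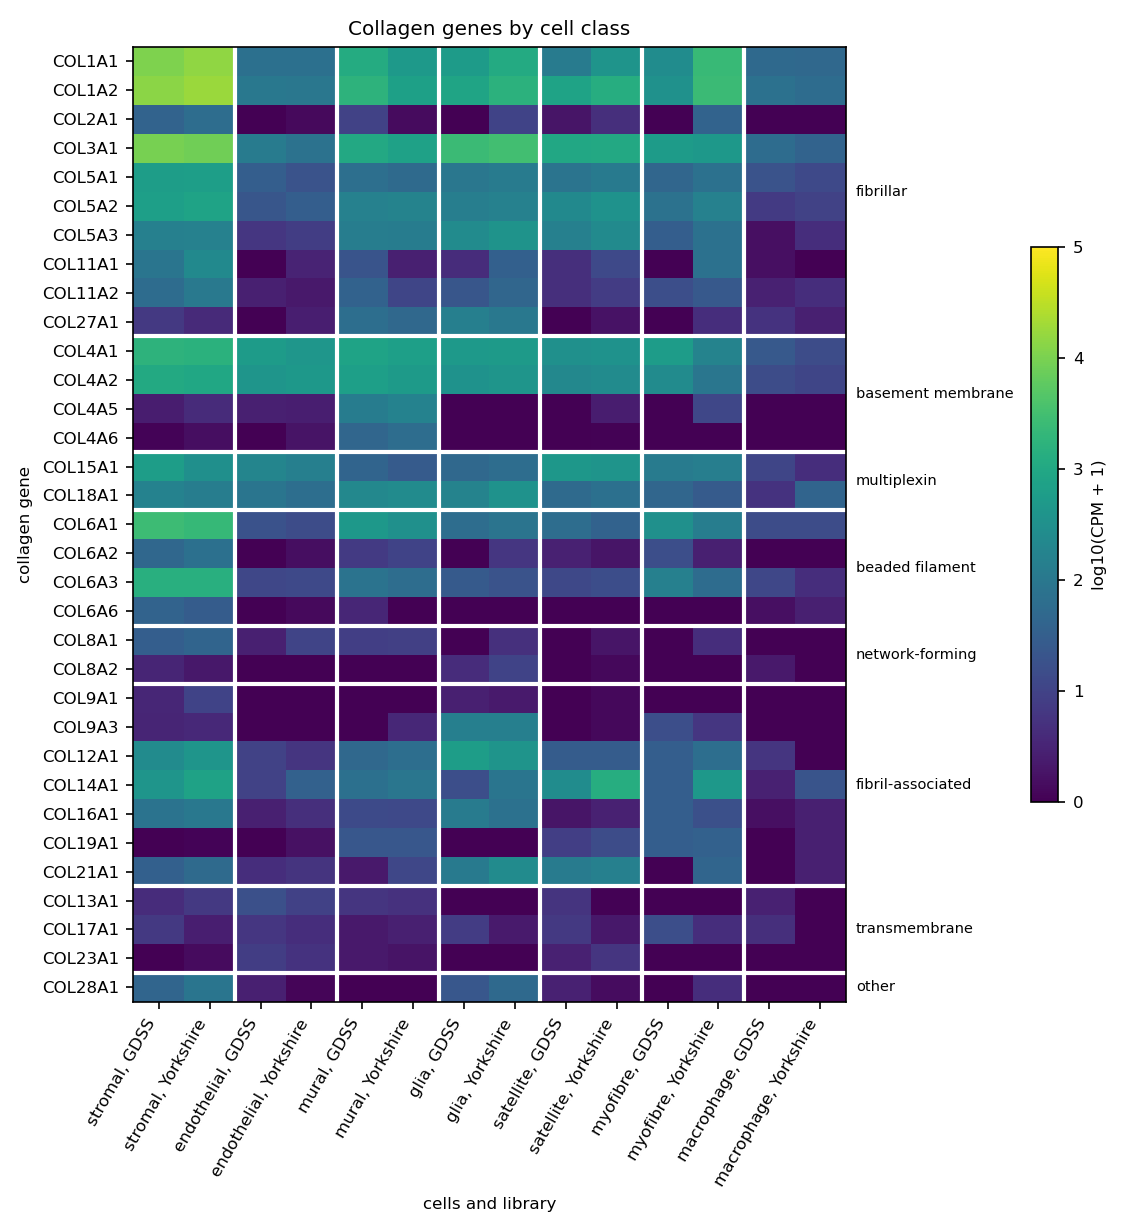
Level of the 33 collagen genes with at least 100 UMIs in 7 cell classes of each library, as log10 of CPM plus 1 (colour), with genes in rows by family and classes in columns, GDSS left of Yorkshire. Stromal cells are the brightest columns, COL4A5 and COL4A6 stand out in mural cells and COL9A3 in glia.

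Most chains were highest in stromal cells. Of the 32 members that reached 100 UMIs over the 7 classes, 17 had their highest level, in CPM, in stromal cells of both libraries, against 6.24% of the 11533 genes counted the same way. These were COL1A1, COL1A2, COL2A1, COL3A1, COL4A1, COL4A2, COL5A1, COL5A2, COL6A1, COL6A2, COL6A3, COL6A6, COL8A1, COL9A1, COL11A1, COL11A2 and COL28A1. The other classes were highest for a share of members no larger than that of all genes: glia for 3 (COL5A3, COL9A3 and COL27A1, background 11.2%), mural cells for 2 (COL4A5 and COL4A6, background 8.81%), endothelial cells for 1 (COL13A1, background 7.7%) and myofibre-like cells for 1 (COL19A1, background 8.38%). COL13A1 rested on 9 endothelial UMIs in GDSS and COL19A1 on 2 myofibre UMIs in GDSS, and their intervals overlapped those of the next class in both libraries. Intervals also overlapped those of the next class for COL9A1 in both libraries, COL2A1 in Yorkshire and COL6A2 in GDSS. No member was highest in satellite cells (background 3.63%) or macrophages (7.56%) in both libraries. The other 8 had a different highest class in each library. COL12A1 and COL16A1 were highest in glia in GDSS and in stromal cells in Yorkshire, COL14A1 and COL15A1 in stromal cells in GDSS and in satellite cells in Yorkshire, COL18A1 in mural cells and glia, and COL21A1 in satellite cells and glia. COL17A1 and COL23A1, both transmembrane chains, stood at no more than 14.9 and 7.01 CPM in any class.

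The fibrillar chains dominated the stroma. COL1A2, the second chain of type I collagen, stood at 13252 CPM in GDSS (13207 to 13296) and 17534 in Yorkshire (17442 to 17627). COL1A1, the main chain of type I, stood at 10671 and 14608 CPM, and COL3A1, the chain of the finer reticular fibres, at 9288 and 8219. The next class for COL1A1 was mural in GDSS, at 1213 CPM, and myofibre-like in Yorkshire, at 2326. Type V chains, which start and limit fibril growth, were lower: COL5A2 at 656 and 788 CPM, COL5A1 at 604 and 638, and COL5A3 at 150 and 155. These are 3′ transcript counts, so levels of different genes also depend on how well each 3′ end is annotated, and only differences of 1 gene or 1 pair between cells are compared below.

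Among the beaded-filament chains of type VI collagen, COL6A1 stood at 2689 CPM in GDSS stromal cells and 2273 in Yorkshire, and COL6A3 at 1455 and 1407. COL6A2, whose chain joins those 2 in the same molecule, stood at 44.8 and 67.8 CPM. It was low beside COL6A1 in mural cells too (6.17 and 9.30 CPM), and whether its 3′ end is poorly annotated was not tested. COL6A1 was also present in mural cells (473 and 324 CPM) but near the macrophage level of 13.6 and 13.7 CPM in endothelial cells (17.5 and 13.7). COL6A6, an alternative type VI chain, was found in stromal cells at 38.0 and 27.4 CPM and at no more than 2.47 CPM in any other class of either library.

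Basement membrane chains were the most widely shared. COL4A1 and COL4A2, the 2 chains of the common type IV molecule, were highest in stromal cells (COL4A1 at 1670.5 CPM in GDSS and 1540.1 in Yorkshire) and were above the macrophage level per cell in all 6 of the other classes. In endothelial cells they were the 2 highest members, with COL4A1 at 561 CPM in GDSS (501 to 626) and 422 in Yorkshire (406 to 439), and COL4A2 at 408 and 454. COL15A1, a multiplexin of the basement membrane zone, followed at 187 and 143 CPM, ahead of COL3A1 (117 and 77.0), COL1A2 (98.1 and 94.0) and COL18A1 (87.6 and 62.1), the multiplexin that gives rise to endostatin. COL1A1, COL1A2 and COL3A1 were not above the macrophage level per cell in endothelial cells of either library. COL3A1 had 67 UMIs in 189 endothelial cells against 94 in 236 macrophages in GDSS. In Yorkshire it had 460 in 1466 against 22 in 79.

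Mural cells, which wrap the outside of vessels, carried a further type IV pair. Their 6 highest members were COL1A2 (1688 CPM in GDSS, 703 in Yorkshire), COL1A1 (1213 and 477), COL3A1 (1047 and 741), COL4A1 (790 and 676), COL4A2 (668 and 537) and COL6A1 (473 and 324). COL4A5 and COL4A6, whose chains form the type IV network of smooth muscle, stood at 126 and 44.4 CPM in GDSS mural cells and at 160 and 61.3 in Yorkshire. COL4A5 reached 10.4 CPM in Yorkshire myofibre-like cells and at most 3.14 in all other classes, and COL4A6 at most 0.836 in any other class. Both were higher in mural cells with smooth muscle markers (COL4A5 at 170 and 175 CPM, COL4A6 at 64.2 and 73.1) than in those with pericyte markers (45.2 and 84.6, 15.1 and 25.7). COL4A1 was the reverse, at 1222 and 1224 CPM in pericyte-like against 658 and 556 in smooth muscle-like cells. COL5A3, the least common type V chain, was likewise higher in pericyte-like cells, at 294 and 379 against 57.3 and 65.8 CPM. The pericyte-like groups held 77 and 105 cells.

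In glia COL3A1 was the highest member, at 2541 CPM in GDSS (2414 to 2672) and 3116 in Yorkshire (2993 to 3243). COL12A1, which bridges fibrils, followed in GDSS after COL1A2 (846 and 1626 CPM) with 595 CPM, against 385 in Yorkshire. Next came COL1A1 at 551 and 1148, COL4A1 at 487 and 521 and COL4A2 at 360 and 402. COL9A3, best known as a chain of cartilage type IX collagen, stood at 144 CPM in glia of both libraries and at no more than 2.77 CPM in stromal, endothelial, mural, satellite or macrophage cells. After each cell was thinned to 1500 UMIs, 18.7% of GDSS and 22.0% of Yorkshire glia had a COL9A3 UMI (23.5% and 29.3% before thinning), against 0 of 233 and 0 of 78 macrophages. COL9A1, its partner chain, had 1 UMI in glia of each library. COL27A1, a fibrillar chain of cartilage, stood at 144 and 101 CPM, and COL5A3 at 252 and 361.

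Within glia some chains differed between marker-defined subtypes, which did not cover all cells. Cells with myelination markers were 29.1% of GDSS and 58.1% of Yorkshire glia, and cells with non-myelinating markers 10.4% and 8.15%. COL18A1 stood at 398 CPM in GDSS and 481 in Yorkshire in cells with myelination markers, against 162 and 187 in cells with non-myelinating markers. COL16A1, a minor fibril-associated chain, went the other way, at 19.3 and 14.8 against 122 and 170 CPM, and so did COL27A1, at 38.5 and 23.2 against 162 and 102. The non-myelinating groups held only 28 and 22 cells with 9 and 10 COL16A1 UMIs, of 71 and 57 in all glia. COL1A1 stood at 500.02 CPM in the GDSS and 7946 in the Yorkshire non-myelinating group.

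Satellite cells, the stem cells of muscle fibres, expressed COL3A1 and COL1A2 with little COL1A1. COL3A1 stood at 1016 CPM in GDSS and 1037 in Yorkshire and COL1A2 at 808 and 1285, but COL1A1 at only 117 and 388. In all, 10 cells held 52.0% of the COL1A1 UMIs in GDSS and 71.7% in Yorkshire, and without them COL1A1 stood at 58.2 and 110.5 CPM. COL15A1 (446 and 391 CPM), COL4A1 (328 and 356), COL5A2 (238 and 349), COL5A3 (147 and 241) and COL21A1 (118 and 150), a fibril-associated chain, were all above the macrophage level per cell in both libraries. COL1A1 was at 0.301 UMIs per GDSS satellite cell against 0.347 per macrophage. In Yorkshire it was higher per satellite cell, with 5518 UMIs in 4275 satellite cells against 28 in 79 macrophages, though 10 satellite cells held 71.7% of them.

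The ratio of the type I chains within a class does not depend on its depth. COL1A2 had 1.24 UMIs per COL1A1 UMI in GDSS stromal cells (1.24 to 1.25) and 1.20 in Yorkshire (1.19 to 1.21). The ratio was 1.23 and 1.20 in tendon-like stromal cells, and in macrophages 1.41 (1.06 to 1.90) and 1.18 (0.691 to 2.02). In satellite cells it was 6.90 (5.72 to 8.40) in GDSS and 3.31 (3.21 to 3.41) in Yorkshire. Leaving out the 10 satellite cells of each library with the most collagen UMIs, a choice made after the data were seen, the ratios became 10.1 (7.87 to 13.0) and 8.45 (8.02 to 8.91), while those of stromal cells stayed at 1.24 and 1.19. A like count of COL3A1 per COL1A1 UMI was 14.0 and 9.42 in satellite cells without those 10, against 0.902 and 0.595 in stromal cells. In satellite cells in which none of the 10 stromal gate markers was detected (105 and 1182 cells), COL1A1 stood at 77.6 and 76.5 CPM, COL1A2 at 548 and 680.5 and COL3A1 at 789 and 849.

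Type V collagen also differed in its chain ratio. COL5A3 had 0.248 UMIs per COL5A1 UMI in GDSS stromal cells and 0.243 in Yorkshire (0.239 to 0.257 and 0.229 to 0.259). In glia the ratio was 2.66 (1.94 to 3.69) and 3.07 (2.41 to 3.93), in mural cells 1.93 and 2.45 and in satellite cells 1.74 and 2.13. All 6 of these intervals lay above those of stromal cells. COL4A1 over COL4A2, by contrast, stayed between 1.18 and 1.62 in stromal, mural, glial and satellite cells of both libraries. Endothelial cells differed between libraries, at 1.37 (1.16 to 1.63) in GDSS and 0.929 (0.879 to 0.981) in Yorkshire.

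**Figure D2:**
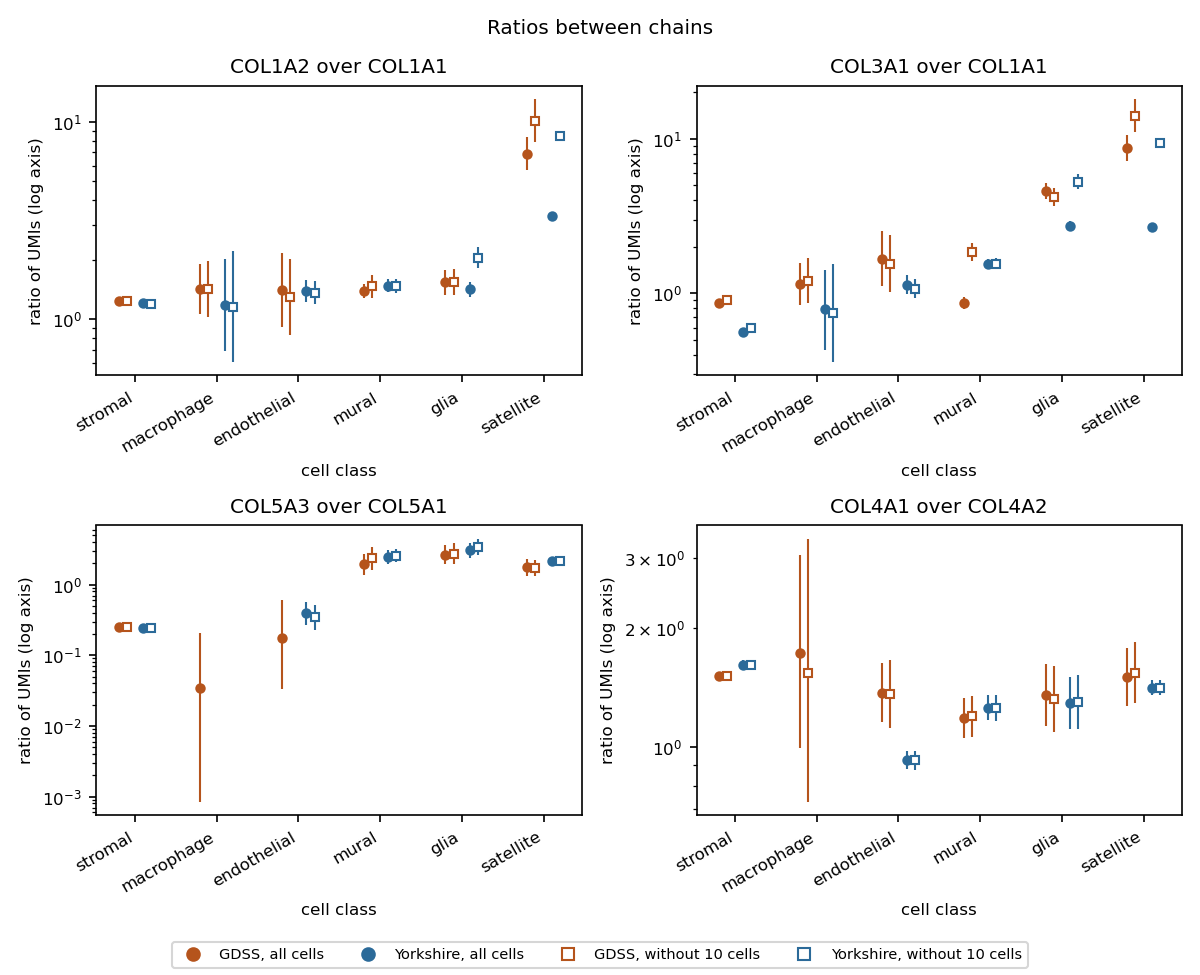
UMIs of one chain per UMI of another (log axis) in 6 cell classes, GDSS in orange and Yorkshire in blue, with exact 95% counting intervals; filled circles use all cells and open squares leave out the 10 cells of each class and library with the most collagen UMIs. Satellite cells stand above the other classes in COL1A2 over COL1A1, and mural, glial and satellite cells above stromal cells in COL5A3 over COL5A1.

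Stromal cells themselves were not alike. They were split by non-collagen markers into states, of which 6 had at least 30 cells in both libraries. These were PI16 progenitors, MME progenitors, FMO1 cells, nerve sheath-like cells (CLDN1, ITGB4), matrix cells (THBS4, KERA) and tendon-like cells. The first 3 are named after 1 of their markers, which not every cell had. In MME progenitors MME was found in 53.3% (GDSS) and 51.6% (Yorkshire), and LPL in 95.5% and 99.7%. LPL was also found in 71.2% and 74.3% of PI16 progenitors and in 64.3% and 83.9% of FMO1 cells. Tendon-like cells had TNMD and at least 1 of SCX, MKX, THBS4 and KERA. In them KERA was found in 91.9% (GDSS) and 95.5% (Yorkshire) and THBS4 in 90.6% and 96.0%. MKX was found in 44.3% and 62.1%, and SCX in only 0.97% and 2.82%. Tendon-like cells, 309 in GDSS and 177 in Yorkshire, spent 11.5% and 11.2% of their UMIs on collagen. Matrix cells (208 and 95) spent 6.51% and 7.25%, PI16 progenitors (718 and 101) 3.90% and 4.09%, FMO1 cells (56 and 155) 3.68% and 3.40%, MME progenitors (1005 and 289) 3.60% and 2.89% and nerve sheath-like cells (37 and 58) 3.55% and 3.63%. Median depths were highest in tendon-like cells, at 5822 and 6267 UMIs. Many stromal cells met no state (57.5% in GDSS and 36.1% in Yorkshire) or several (6.59% and 16.6%).

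Of 27 members with at least 100 stromal UMIs, 7 were highest in the tendon-like state in both libraries, against 4.69% of 9812 genes: COL1A1, COL1A2, COL2A1, COL11A1, COL11A2, COL12A1 and COL13A1, the last with intervals that overlapped those of matrix cells in both libraries. COL1A1 reached 46577 CPM in GDSS and 45709 in Yorkshire, ahead of matrix cells at 17718 and 22158. COL11A1 and COL11A2, the chains of the minor fibrillar type XI, reached 1070 and 1373 and 737 and 693 CPM, ahead of matrix cells, where COL11A1 stood at 65.5 and 240.5 CPM and COL11A2 at 19.9 and 29.3. COL2A1, the main collagen of cartilage, stood at 514 CPM (482 to 547) and 388 (352 to 426), and in the next state at 0.330 and 12.01. A COL2A1 UMI was found in 64.4% and 67.8% of tendon-like cells, and in no macrophage of either library. COL12A1 reached 944 and 1308 CPM.

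COL3A1, unlike COL1A1, was lowest in tendon-like cells. It stood at 2648 CPM in GDSS and 1837 in Yorkshire in tendon-like cells but between 6997 and 14988 in the 5 other states, with matrix cells highest in both libraries (14988 and 13490). There were 0.0569 and 0.0402 COL3A1 UMIs per COL1A1 UMI in tendon-like cells, against 0.870 and 0.563 over all stromal cells. COL5A2 and COL14A1 were also highest in matrix cells in both libraries, COL5A2 at 983 and 1280 CPM and COL14A1, a fibril-associated chain that regulates fibril diameter, at 974 and 1763. These 3 compare with 2% of all genes highest there. COL4A1 was lowest in tendon-like cells too, at 191 and 111 CPM.

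MME progenitors were highest for 5 members in both libraries, against a background of 2.97%: COL4A1 (2406 and 2591 CPM), COL4A2 (1541 and 1543), COL5A3 (199 and 248), COL6A1 (2952 and 2543) and COL6A2 (51.6 and 87.6). The intervals of COL4A1 and COL4A2 lay apart from the next state, FMO1 cells, in both libraries, while those of the 3 others overlapped in both. Nerve sheath-like cells were also highest for 5, but 19.1% of all genes were highest in that small group. COL28A1, a chain with von Willebrand factor A domains known from peripheral nerve, stood there at 973 CPM (820 to 1146) and 744 (641 to 859), against at most 50.3 in the other 5 states. Stromal cells of no state were at 44.2 and 122 CPM. They held more COL28A1 UMIs (566 and 288) than the nerve sheath-like cells (143 and 186). COL18A1 (660 and 724 CPM), COL21A1 (143 and 224), COL9A1 (68.0 and 100) and COL8A1 (81.6 and 140), a network-forming chain, were the other 4, and the COL8A1 interval overlapped that of matrix cells in GDSS. CLDN1, one of the markers that chose them, was found in 97.3% and 94.8% of the nerve sheath-like cells. THBS4, a matrix-state marker, was found in 75.7% and 65.5%. TNMD, SCX and MKX were found in none. For TNMD this was largely set by the gate, since cells with TNMD and another tendon or matrix marker were counted as tendon-like. No member was highest in PI16 progenitors (background 3.3%) or FMO1 cells (3.59%) in both libraries.

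**Figure D3:**
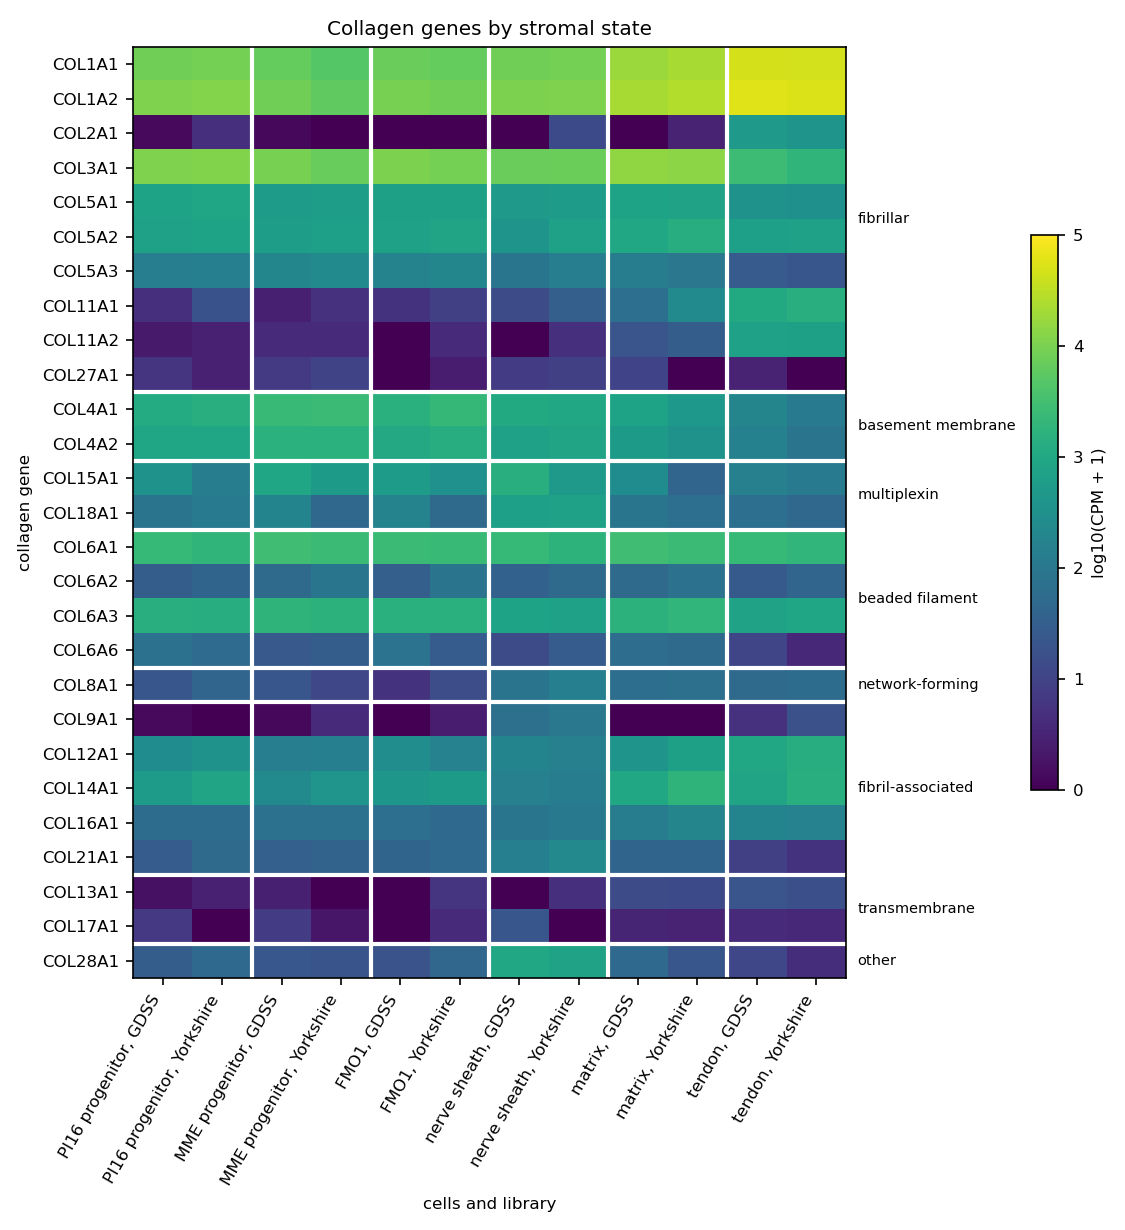
Level of the 27 collagen genes with at least 100 stromal UMIs in 6 stromal states of each library, as log10 of CPM plus 1 (colour). Tendon-like cells combine the highest COL1A1, COL2A1, COL11A1 and COL11A2 with the lowest COL3A1 and COL4A1, and COL28A1 stands out in nerve sheath-like cells.

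Set side by side over all stromal cells, the libraries differed in both directions. A member was called when its CPM differed by at least 1.5-fold, with no test. Of 27 members, 3 were called higher in GDSS, COL15A1, COL17A1 and COL27A1, against 6.48% of all 9812 genes, and 10 were called higher in Yorkshire, against 16.1%. Under TMM scaling, which moved the median log2 ratio of all genes by 0.20, the split of 3 and 10 became 4 and 5. The median log2 ratio of the members was -0.38 (GDSS over Yorkshire), against -0.13 over all genes. The most abundant chains differed less: COL1A1 was 1.37-fold and COL1A2 1.32-fold higher in Yorkshire, and COL3A1 1.13-fold, COL4A1 1.08-fold, COL6A1 1.18-fold and COL6A3 1.03-fold higher in GDSS.

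Among the 10 higher in Yorkshire, COL9A1 was 3.62-fold higher (2.54 to 5.15), COL11A1 2.66-fold (2.50 to 2.83), COL28A1 2.09-fold (1.90 to 2.30), COL14A1 1.88-fold (1.82 to 1.94) and COL11A2 1.82-fold (1.67 to 1.99). COL13A1, COL21A1, COL2A1, COL12A1 and COL6A2 lay between 1.51-fold and 1.69-fold. The mix of states moved with these values: tendon-like cells were 4.13% of GDSS and 9.28% of Yorkshire stromal cells, matrix cells 2.78% and 4.98% and nerve sheath-like cells 0.495% and 3.04%. An alternative gave equal weight to each of the 6 states, to cells of no state and to cells of several states. Under it the 10 became 3, and the log2 ratios of COL2A1 (0.28), COL28A1 (0.13) and COL11A2 (0.04) were no longer below 0. Within tendon-like cells COL11A1 had a log2 ratio of -0.36, COL11A2 of 0.09 and COL2A1 of 0.41. In cells of no state, the largest group, each of the 10 had a log2 ratio below 0. It was -2.03 for COL11A1, -1.47 for COL28A1 and -1.25 for COL11A2, but -0.27 for COL12A1. COL2A1 rested there on 1 UMI in GDSS and 4 in Yorkshire. How far the mix of states accounts for the calls was not tested.

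**Figure D4:**
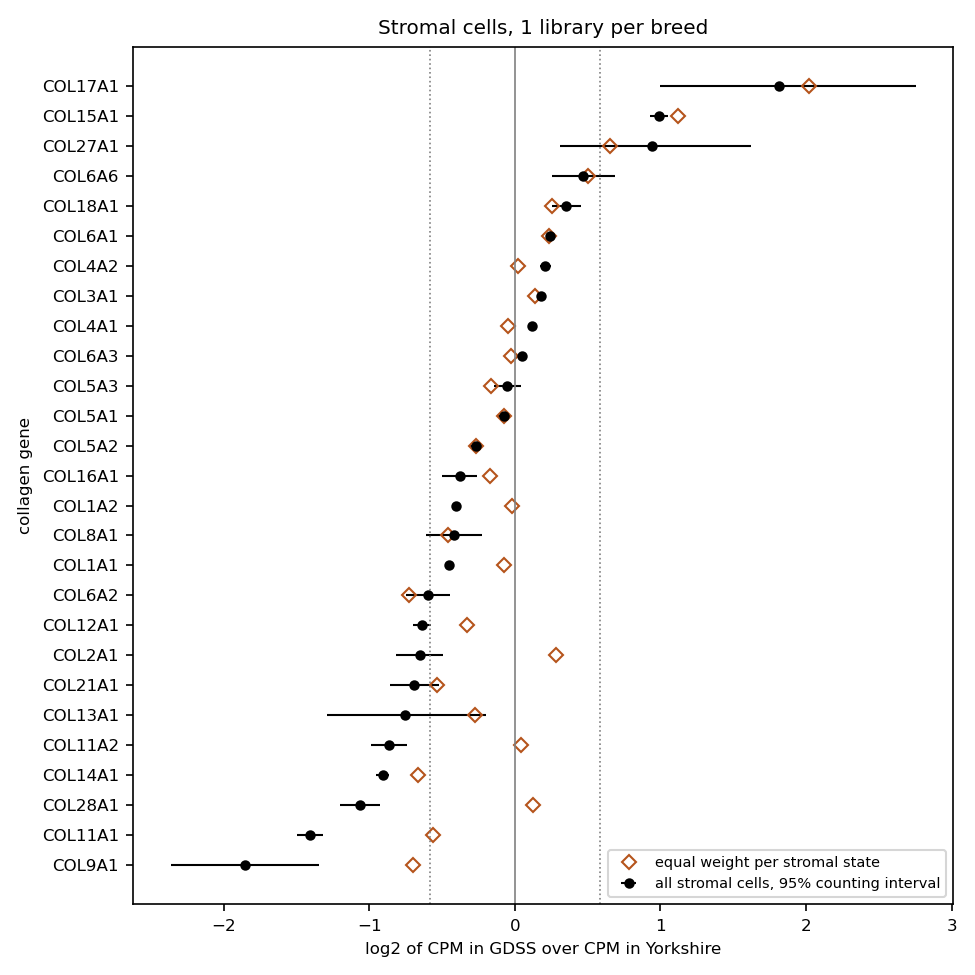
Log2 ratio of CPM, GDSS over Yorkshire, for 27 collagen genes in stromal cells. Black points are all stromal cells with exact 95% counting intervals, and dotted lines mark 1.5-fold. Open diamonds give equal weight to each stromal state, to cells of no state and to cells of several states. COL14A1, COL6A2 and COL9A1 stay below the lower line and COL15A1, COL17A1 and COL27A1 above the upper line under equal weight.

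COL14A1 and COL15A1 kept their direction across nearly all states. COL14A1 stood at 404 CPM in GDSS stromal cells (396 to 412) and 758 in Yorkshire (739 to 777). It was lower in GDSS in 5 of the 6 states, with 974 against 1763 CPM in matrix cells, 819 against 1442 in tendon-like cells, 554 against 828 in PI16 progenitors and 250 against 399 in MME progenitors. In FMO1 cells (438 against 522) and nerve sheath-like cells (150 against 132) the ratio's interval included 1. COL15A1 stood at 608 CPM in GDSS (598 to 617) and 306 in Yorkshire (294 to 318), and was higher in GDSS in all 6 states, from 151 against 107 CPM in tendon-like cells to 1421 against 496 in nerve sheath-like cells. In matrix cells COL15A1 was at 267 CPM in GDSS and 41.8 in Yorkshire.

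COL17A1, a transmembrane chain of epithelial hemidesmosomes, was 3.52-fold higher in GDSS (1.99 to 6.76), from 149 UMIs against 13. COL27A1 was 1.92-fold higher (1.24 to 3.09), from 150 against 24. COL6A6 followed at 1.39-fold, under the 1.5-fold line. Neither COL17A1 nor COL27A1 was above the macrophage level per cell in stromal cells of either library. Their 149 and 150 GDSS UMIs lay in 7481 stromal cells, and 236 GDSS macrophages had 6 and 7. With equal weight for each state, for cells of no state and for cells of several states, the log2 ratios were 2.02 for COL17A1, 1.12 for COL15A1 and 0.65 for COL27A1.

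In satellite cells COL14A1 differed most. It stood at 267 CPM in GDSS (237 to 300) and 1307 in Yorkshire (1288 to 1326), a 4.90-fold difference (4.36 to 5.53), and in Yorkshire it was the highest member of the class, with an interval that overlapped that of COL1A2. In cells thinned to 1500 UMIs, 27.8% (23.2 to 32.7) of GDSS and 72.6% (71.2 to 73.9) of Yorkshire satellite cells had a COL14A1 UMI, and 38.8% and 85.3% before thinning. The thinned shares in macrophages were 0.429% and 2.56% (1.27% and 10.1% before), and satellite cells had median depths of 2320 and 3034 UMIs. In satellite cells with no stromal marker detected COL14A1 stood at 293 and 1331 CPM, in those with a MYOD1 UMI at 348 and 1326, and in those with a PAX7 and no MYOD1 UMI at 255 and 1377. The 10 cells with the most COL14A1 held 1.83% of its UMIs in Yorkshire and 19.6% in GDSS, and without them the levels were 222 and 1289 CPM. COL15A1, by contrast, differed by 1.14-fold (1.04 to 1.25, higher in GDSS).

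**Figure D5:**
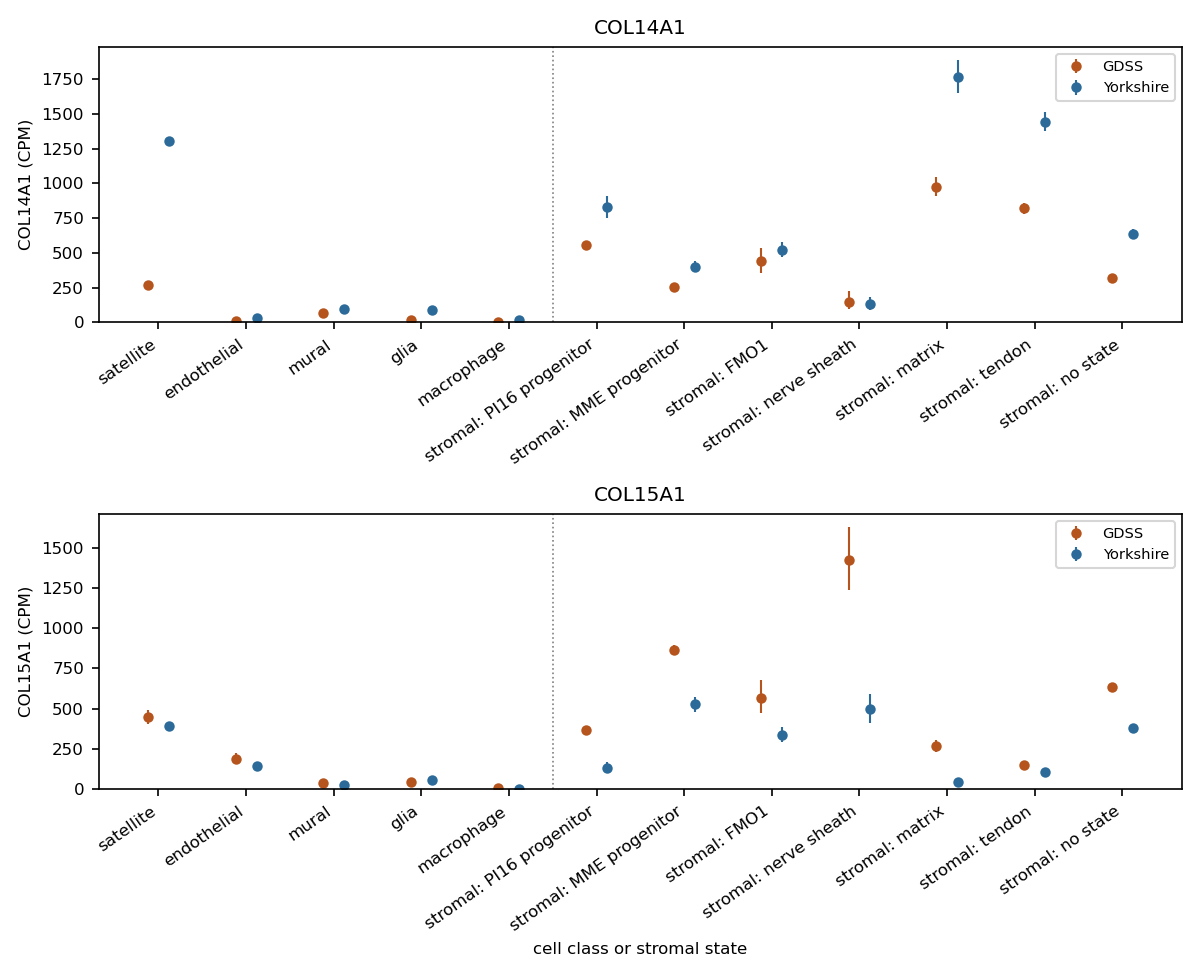
CPM of COL14A1 (top) and COL15A1 (bottom) in 5 cell classes and, right of the dotted line, 6 stromal states and stromal cells of no state, GDSS in orange and Yorkshire in blue, with exact 95% counting intervals. COL14A1 is higher in Yorkshire in satellite cells (1307 against 267) and most stromal states, and COL15A1 is higher in GDSS in each stromal state.

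Of 18 satellite members compared, 7 were called higher in Yorkshire (background 22.6%) and 1, COL6A1 at 1.68-fold, higher in GDSS (background 11.8%). COL1A1, at 3.32-fold, and COL1A2, at 1.59-fold, were among the 7. With clusters computed without collagens in place of gates, the log2 ratios of COL1A1 (3.81), COL1A2 (1.35) and COL11A1 (2.30) turned to higher in GDSS, so the direction of these 3 depends on how satellite cells were chosen, while that of COL14A1 stayed at -2.28. Without the 10 cells of most collagen UMIs the COL1A1 log2 ratio was -0.66 in place of -1.73, and 71.7% of its Yorkshire UMIs lay in 10 cells. COL5A3 was 1.64-fold higher in Yorkshire, while COL11A1, COL11A2 and COL19A1 rested on 4 to 8 GDSS UMIs.

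Among 16 mural members, COL1A1 (2.55-fold) and COL1A2 (2.40-fold) were called higher in GDSS (background 7.58%) and none higher in Yorkshire (background 15.4%). Only 10 GDSS cells held 63.4% of the COL1A1 and 60.7% of the COL1A2 UMIs. Without the 10 cells of most collagen UMIs the log2 ratios were 0.17 and 0.16, so these 2 calls rested on those cells, and neither held under the stricter gate or in clusters. COL6A1 was 1.46-fold and COL3A1 1.41-fold higher in GDSS, and COL4A6 1.38-fold, COL14A1 1.36-fold, COL12A1 1.30-fold and COL4A5 1.27-fold higher in Yorkshire.

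Among 14 glial members, 2 were called higher in GDSS (COL12A1 at 1.55-fold and COL16A1 at 1.63-fold, background 9.78%) and 4 in Yorkshire (COL21A1 at 2.37-fold, COL1A1 at 2.08-fold, COL18A1 at 2.06-fold and COL1A2 at 1.92-fold, background 20.6%). COL27A1 was 1.42-fold and no other member higher in GDSS. In Yorkshire 60.05% of the COL1A1 UMIs lay in 10 cells, and without the 10 cells of most collagen UMIs its log2 ratio was -0.11. Under a stricter gate COL1A1 (-0.02) and COL1A2 (-0.36) fell under 1.5-fold, COL12A1 (0.57) did too, and of the 4 calls that still had a value 1 remained, COL18A1. In clusters COL1A1 (0.69) and COL1A2 (0.19) turned to higher in GDSS. Myelinating cells were 29.1% of GDSS and 58.1% of Yorkshire glia. Their part in the COL18A1 and COL16A1 differences was not tested.

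Among 10 endothelial members, COL5A1 (1.68-fold, interval 0.943 to 2.82) and COL3A1 (1.53-fold) were called higher in GDSS (background 8.19%), and COL14A1 (3.93-fold, from 5 UMIs in GDSS) in Yorkshire (background 17.2%). None of these was above the macrophage level per cell in the library where it was higher. COL5A1 and COL3A1 had 17 and 67 UMIs in 189 GDSS endothelial cells, against 29 and 94 in 236 macrophages. COL14A1 had 206 in 1466 Yorkshire endothelial cells, against 11 in 79 macrophages. COL18A1 was 1.41-fold and COL4A1 1.33-fold higher in GDSS, COL5A2 1.42-fold and COL4A2 1.11-fold higher in Yorkshire. In macrophages only COL1A1, COL1A2 and COL3A1 reached 100 UMIs, and the interval of each ratio included 1, that of COL3A1 (1.55-fold higher in GDSS, background 11.7%, none higher in Yorkshire, 13.4%) too. Of 5 myofibre-like members, COL4A1 (3.43-fold, background 8.8%) was called higher in GDSS and COL14A1 (15.8-fold, 2 UMIs in GDSS), COL1A1 (8.68-fold) and COL1A2 (7.60-fold) in Yorkshire (background 17.4%). Of the Yorkshire COL1A1 UMIs there, 97.3% lay in 10 cells, and in clusters the log2 ratios of COL1A1 (1.02) and COL1A2 (1.32) turned to higher in GDSS. The highest members in that class were COL4A1, COL3A1, COL1A2, COL6A1, COL1A1 and COL4A2 in GDSS, and COL1A2, COL1A1, COL14A1, COL3A1, COL4A1 and COL5A2 in Yorkshire.

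The enzymes, chaperones and receptors that act on collagen were read in the same way, from a list of 46 genes of which 42 were found. Of the 39 with at least 100 UMIs, 22 were highest in stromal cells in both libraries, against 6.24% of all genes. PCOLCE, the enhancer of procollagen C-terminal cleavage and itself a gate marker, and SPARC, a collagen-binding protein, led in stromal cells, at 2949 and 1936 CPM and at 2943 and 3375 CPM. SPARC and ITGB1, the common integrin beta chain, were the highest 2 in endothelial, mural, glial and myofibre-like cells, and SPARC (624 and 587 CPM) and PPIB, a prolyl isomerase (434 and 333.5), in satellite cells. SPARC stood at 2278 and 2500.4 CPM in glia, 1332 and 1203 in mural cells and 652 and 666 in endothelial cells. In macrophages PPIB led (360.3 and 259.5 CPM), ahead of ITGB1 in GDSS (128) and LAIR1 in Yorkshire. Glia were highest in both libraries for P3H2, a prolyl 3-hydroxylase (294 and 297 CPM), and satellite cells for LOXL1, a crosslinking oxidase (136 and 49.9 CPM). LAIR1, a collagen receptor of leukocytes, stood at 59.3 and 93.9 CPM in macrophages and at no more than 0.0703 CPM in any other class.

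In stromal cells 35 of the list were compared, and 4 were called higher in GDSS (background 6.48%) and 5 higher in Yorkshire (16.1%). The list's median log2 ratio was -0.0046. FKBP14, a procollagen isomerase, was 2.33-fold higher in GDSS (2.06 to 2.64), LOXL4 2.04-fold and SERPINH1, the collagen chaperone, 1.73-fold (1.67 to 1.79), at 817 against 472 CPM. P4HA3, a prolyl 4-hydroxylase subunit, was 5.66-fold higher in Yorkshire (4.80 to 6.68), at 50.4 against 8.91 CPM. ADAMTS3, an N-proteinase, was 2.21-fold and LOX, the main crosslinking oxidase, 2.13-fold higher in Yorkshire (2.04 to 2.21), at 541 against 255 CPM.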

How the data were processed

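The 2 libraries (10x Genomics, 1 per breed) of pig longissimus dorsi cells were analysed from the raw UMI count matrices that the authors deposited, which the submitters' processing notes attribute to Cell Ranger and whose header gives software version 3.1.0. As to the genome build, it is not given in the sources used here. All 40 members, the marker lists and the tests were chosen with earlier results of these data known. COL9A2, COL24A1, COL7A1 and COL20A1 were not analysed here.

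Cells with under 500 genes, over 10% mitochondrial UMIs or a scrublet doublet score of 0.3 or more (scanpy 1.11.5; its automatic threshold marked no GDSS cell) were left out. Classes required a minimum number of detected markers (5 of 10 for stromal cells, 2 to 4 otherwise) and no other class; ERBB3 was dropped from the glial list because most cells of all classes had it. UMIs were summed per class and library and given as CPM with exact Poisson, binomial or conditional binomial 95% intervals (scipy 1.17.1), which cover counting error only. A UMI counts a molecule, so shares of cells also depend on depth and are given after thinning to 1500 UMIs. A gene was compared with at least 100 UMIs over both libraries and called at 1.5-fold or more, with the same rule over all genes as background. No test was made, since each breed has 1 library. Counts for the stromal comparison were simulated with counting error only, from 1 averaged profile (9812 genes, 200 of them changed 2-fold). There 98.0% of changed genes were recovered and 0.707% of the others called. The simulation held no variation between animals, preparations or cells, so it gives no rate of false calls between the breeds.

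In each class any member with at least 100 UMIs could be named, and the 6 of highest CPM and 4 of largest ratio each way were; of the collagen enzyme and receptor list, the 3 of largest ratio each way and the 2 of highest CPM were required. P3H2, LOXL1, LAIR1 and the examples of the reference list were chosen after their values were seen. Alternatives included a stricter gate, other filters and scalings (edgeR 4.0.16 for TMM factors), thinning, clusters computed without collagens, equal weight per stromal state, and, both chosen after seeing the data, sums without the 10 cells of most collagen UMIs and without tendon-like and matrix cells.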

Additional observations from a re-analysis of the deposited data

Results flagged for a closer look

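For 3 collagen ratios between the breeds, the 2 cell classes furthest apart went opposite ways; none of these differences was tested, since each breed has 1 library. The log2 ratio of COL12A1, GDSS over Yorkshire, was 0.63 in glia (595 and 385 CPM) and -0.64 in stromal cells (260 and 405 CPM), a difference of 1.27. The COL1A1 ratio was 1.35 in mural and -3.12 in myofibre-like cells, a difference of 4.47, and the COL1A2 ratio 1.26 and -2.93, a difference of 4.19. In both of these classes most type I collagen UMIs of 1 library lay in 10 cells (63.4% of COL1A1 UMIs in GDSS mural cells and 97.3% in Yorkshire myofibre-like cells). The opposite directions were lost in clusters, where the myofibre-like ratios were 1.02 and 1.32, the same sign as in mural cells. Without the 10 cells of most collagen UMIs the mural ratios kept their sign but fell to 0.17 and 0.16. With at most 5% mitochondrial UMIs, no doublet filter, thinning, TMM or median-of-ratios scaling, both mural calls kept direction and fold. No myofibre-like call that had a value was reversed under those settings.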

How the results depend on the processing

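The stromal collagen share of 4.34% in GDSS became 3.87% under a stricter gate, 4.53% with at most 5% mitochondrial UMIs, 3.92% after thinning, 4.46% in clusters and 4.28% without 10 cells; that of 5.05% in Yorkshire became 4.29%, 5.32%, 4.45%, 5.49% and 4.86%, and 4.99% with no doublet filter. Of the 17 members highest in stromal cells, 14 remained under the stricter gate, 15 after thinning (16 with COL15A1, which joined them) and all 17 under the other 4 alternatives. Under the stricter gate 1 of the 4 glial calls and 4 of the 6 satellite calls that had a value kept their direction and fold. The count of 3 higher in GDSS became 1 after thinning and with a minimum of 500 UMIs. The 10 higher in Yorkshire became 6 under the stricter gate, 5 under TMM, 6 under median-of-ratios scaling, 3 with equal weight per state and 6 without tendon-like and matrix cells. The stromal median log2 ratio of -0.38 became -0.16, -0.18, -0.25, -0.0493 and -0.15 under these 5, -0.28 after thinning and -0.48 in clusters; TMM and median-of-ratios scaling moved the median of all genes by 0.20 and 0.13. Under equal weight the log2 ratios of COL28A1 (0.13), COL11A2 (0.0430) and COL2A1 (0.28) in stromal cells changed sign. In clusters in place of gates so did COL1A2 (0.19) and COL1A1 (0.69) in glia, COL1A2 (1.35), COL11A1 (2.30) and COL1A1 (3.81) in satellite cells and COL1A2 (1.32) and COL1A1 (1.02) in myofibre-like cells; the cause was not tested. COL14A1 in satellite cells stayed between -2.45 and -2.14, and in stromal cells between -1.003 and -0.66, with COL15A1 there between 0.81 and 1.19. The planned measure of the protein repeat was not run, because no protein sequence was used here. No paired analysis was possible because each breed has 1 library. Depth limits the 7 members with under 100 UMIs, which were given no value by class, and the GDSS endothelial, myofibre-like and nerve sheath-like sums of few cells.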
